A study of Mus musculus with 67 samples.

Results

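Zinc handling was followed in 6 genes of the mouse preimplantation embryo: the metallothionein genes Mt1 and Mt2, the metal sensor gene Mtf1, the zinc exporter gene Slc30a1 and the zinc importer genes Slc39a10 and Slc39a6. They were taken by symbol from an expression table of 26414 genes, and all 6 were in it. The table held 67 SMART-seq2 libraries of C57BL/6 embryos, a protocol that amplifies and sequences messenger RNA from very small inputs. Oocytes of females aged 6 weeks had been fertilized in vitro with sperm of males aged 10 weeks. The light group (34 libraries) had been exposed at the 2-cell stage to 5000 lx for 6 h and then kept in the dark, while the control group (33 libraries) had stayed in the dark throughout. The control group held 7 2-cell, 6 4-cell, 4 8-cell, 13 morula and 3 blastocyst libraries, and the light group held 6, 8, 8, 6 and 6 in the same order. The methods describe a single cell picked from a dissociated embryo for each library, and the labels number the embryo. Nothing states how many embryos or fertilizations stood behind a group, so the p-values take the libraries as independent and measure the spread between them.

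Metallothioneins are small cysteine-rich proteins that bind zinc and copper ions. Their genes respond to metals through MTF-1, the product of Mtf1, a zinc finger protein that binds free zinc and then attaches to short metal response elements in its target promoters. Slc30a1 (ZnT1) moves zinc out of the cell and is a classical MTF-1 target, whereas Slc39a10 (ZIP10) and Slc39a6 (ZIP6) are related importers of the plasma membrane that can act as a pair. Zinc is taken up by the maturing mouse oocyte and is released in bursts, the zinc sparks, when the egg is activated.

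The bases just before the annotated start of the metal-responsive members are shown with their matches to the metal response element core. In RefSeq, 5 of the 6 genes had a promoter window in the set used here. The 250 bases before the start of transcription are printed from 5′ to 3′ on the strand of the gene, with matches to TGCACNC or TGCGCNC on either strand in capitals. The coordinates are those of GRCm38.p6, whereas the submitters' processing notes name mm9, so that these positions do not apply to the alignments behind the table. The windows are chr8:94178839-94179088 for Mt1, chr8:94172368-94172617 for Mt2 and chr1:191906531-191906780 for Slc30a1, all on the forward strand.
Mt1: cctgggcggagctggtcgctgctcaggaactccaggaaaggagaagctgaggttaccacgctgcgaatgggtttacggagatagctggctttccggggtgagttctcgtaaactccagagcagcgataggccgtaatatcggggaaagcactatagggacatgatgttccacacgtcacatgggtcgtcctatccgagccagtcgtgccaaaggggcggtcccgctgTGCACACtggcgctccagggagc
Mt2: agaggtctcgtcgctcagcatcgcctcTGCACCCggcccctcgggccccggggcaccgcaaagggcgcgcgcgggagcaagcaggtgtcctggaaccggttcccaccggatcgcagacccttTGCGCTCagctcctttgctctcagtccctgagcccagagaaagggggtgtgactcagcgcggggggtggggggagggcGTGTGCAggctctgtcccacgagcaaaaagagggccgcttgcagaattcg
Slc30a1: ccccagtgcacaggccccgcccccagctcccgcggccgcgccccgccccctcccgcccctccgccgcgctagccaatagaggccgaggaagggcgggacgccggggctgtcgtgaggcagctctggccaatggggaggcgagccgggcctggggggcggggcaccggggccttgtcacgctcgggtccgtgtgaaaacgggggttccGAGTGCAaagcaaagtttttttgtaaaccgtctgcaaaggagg

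The Mt2 window held 3 matches, the Mt1 window 1 and the Slc30a1 window 1, whereas the windows of Mtf1 and Slc39a10 held 0. Among 32851 windows of 27025 genes, 21.4% held at least 1 match, 5.17% at least 2 and 1.26% at least 3, so that a single match was common. A match describes letters and not a bound site. Bases after the annotated start and further upstream were not searched, so the counts depend on that start and are not those of a whole promoter. The starts of Mt2 and Mt1 lie 6471 bases apart on chromosome 8. The 2 genes could be told apart by their reads, since their annotated transcripts had 1272 and 574 distinct stretches of 30 bases and shared 0.

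Each deposited value is a number of reads divided by a size factor of its library, so that 1 read was worth between 0.266 and 3.89 units. Total reads ran from 836011 to 8551674 per library with a median of 4632053. Between 54.0% and 89.3% of them fell on the 2 genes CT010467.1 and Gm42418, which overlap the ribosomal RNA locus, and this share differed between groups. It had a median of 84.3% in light blastocysts and 74.0% in control blastocysts, so a scale of CPM over the reads outside these 2 genes, the scale outside the ribosomal locus, is given wherever it changed a result. The ratio of the 2 genes to each other also differed between the treatments before the blastocyst stage, with group means of 1.54 to 1.65 in light and 2.21 to 3.22 in control libraries, and whatever handling this reflects cannot be told apart from light. The groups overlapped at the 4-cell stage, where control embryo 3 (1.61) lay within the light range of 1.43 to 1.63 and control embryos 1 and 2 stood at 4.55 and 4.35. Stage markers separated the 2-cell from the blastocyst libraries, but not every stage between them. The 7 genes of the transient 2-cell state summed to medians of 355 and 374 in control and light 2-cell and to 2.57 and 0.976 in blastocyst libraries, and in between they were higher in control 8-cell (median 241.6) than in control 4-cell libraries (28.0). The 7 trophectoderm genes summed to 78.1 and 133.5 and to 2873 and 3873. Sperm genes summed to at most 10.4 in any library. The 5 listed cumulus genes summed to 23.0 to 103 in control and 68.7 to 227 in light 2-cell libraries, with Inha at 0 in every library. Y-linked reads reached 10 CPM in 0 of 20 control 8-cell, morula and blastocyst libraries, and in 3 of 8 light 8-cell, 1 of 6 light morula and 6 of 6 light blastocyst libraries, whereas earlier they did so in 3 of 7 control and 2 of 6 light 2-cell and in 4 of 6 control and 8 of 8 light 4-cell libraries. A gene was called changed in limma at a Benjamini-Hochberg adjusted p below 0.05 over all genes tested and a fold change of at least 2 on the scale of log2(value + 1), to which all log2 fold changes below refer.

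The metallothionein transcripts were abundant at every stage, and in group means none of the other members came close to them for its length. Mt1 had 55 to 7580 reads and Mt2 29 to 4270 reads in each of the 67 libraries. Per kilobase of annotated exon, group means were 404 to 1599 units for Mt2 and 249.6 to 1063 units for Mt1, against 0.383 to 75.4 units for the other 4 genes. The order of Mt1 and Mt2 was not read from this, because their shortest annotated transcripts (549 and 388 bases) are much shorter than their joined exons (1246 and 588 bases).

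In control embryos, the Mt1 and Mt2 transcripts rose from the 2-cell to the 4-cell stage, were lower at the 8-cell than at the 4-cell stage and rose again at the morula stage. At the 2-cell stage, Mt1 values ran from 170.8 to 718.9 with a median of 416.4, and Mt2 values from 69.7 to 331.4 with a median of 311.4. At the 4-cell stage, Mt1 stood at 701.9 to 1498 in 5 libraries and Mt2 at 763.5 to 1674, while control 4-cell embryo 3 had 210.2 and 100.7. The 2 stages thus overlapped only through that embryo for Mt2. For Mt1 they also overlapped without it, at 718.9 in a 2-cell and 701.9 in a 4-cell library. The increase was 1.06 for Mt1 (SE 0.42, adjusted p = 0.0413) and 1.74 for Mt2 (SE 0.54, adjusted p = 0.0117), in a comparison where 46.1% of all genes tested were called and the median gene moved by −0.72. The Mt1 call was lost without any of control 2-cell embryos 8, 9, 10 and 17 or control 4-cell embryos 1, 2, 4, 5 and 6, at 0.87 to 1.09, whereas the Mt2 call was kept in all 13 such fits.

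The control 8-cell embryos were the most uniform group for Mt1, with 270.5, 293.9, 321.2 and 358.2, and their Mt2 values were 135.8, 235.1, 289.5 and 289.6. They lay below 5 of the 6 control 4-cell libraries in both genes. The difference from the 4-cell stage was −1.32 for Mt1 (adjusted p = 0.0543) and −1.66 for Mt2 (adjusted p = 0.0567), at a step where 6.31% of genes were called. Both missed the threshold with all libraries and passed it without control 4-cell embryo 3, at −1.70 (adjusted p = 0.00247) and −2.22 (adjusted p = 0.00105), beside 8.35% of genes called in that fit. On the scale outside the ribosomal locus, with all libraries, the differences were −0.60 and −0.94, and neither passed. On that scale the control 8-cell means were 497.0 CPM for Mt1 and 372.0 CPM for Mt2. They stood above the control 2-cell means of 303.4 and 189.3 CPM, a difference that was not tested.

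At the morula stage, control Mt1 values ran from 423.7 to 5365 with a median of 892.7, all above the 8-cell values. Mt2 ran from 287.2 to 3022 with a median of 602.5. The highest value of both genes came from control morula 26, the morula library with the smallest share of ribosomal locus reads (57.9%). Mt1 rose by 1.59 (SE 0.40, adjusted p = 0.00675) and Mt2 by 1.42 (SE 0.40, adjusted p = 0.0170), beside 14.3% of genes called and 5.02% whose groups did not overlap. Both calls held without morula 26, at 1.38 and 1.23, but the Mt2 call was lost without control 8-cell embryo 3.

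Control blastocysts scattered widely, with Mt1 at 28.9, 787.3 and 452.1 and Mt2 at 15.3, 477.0 and 270.3 in libraries 1, 2 and 3. Library 1 thus held far fewer metallothionein reads than any other library of the series. Against the morula stage Mt1 fell by 2.09 (SE 0.66, adjusted p = 0.0380) and Mt2 by 2.26 (SE 0.66, adjusted p = 0.0262), beside 11.9% of genes called. Both calls rested on library 1: without it the differences were −0.65 (adjusted p = 0.548) and −0.77 (adjusted p = 0.465). With edgeR on the recovered reads, neither gene was called (adjusted p = 0.196 and 0.162).

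In light embryos, the 4-cell rise did not appear among the calls, and the morula rise of Mt1 did. Deposited Mt1 values had medians of 557.0, 528.3, 414.3, 1082 and 1178.5 in the order of the stages, and Mt2 values of 344.5, 422.3, 395.8, 807.0 and 504.9. Outside the ribosomal locus the medians were 456.3, 523.7, 559.0, 1964 and 2597 CPM for Mt1. For Mt2 they were 266.5, 417.8, 603.2, 1433 and 1319 CPM. On that scale neither median was lower at the 8-cell than at the 4-cell stage. The Mt2 mean there rose from 1311 in morulae to 1739 CPM in blastocysts, unlike its median. From the 2-cell to the 4-cell stage, Mt1 differed by 0.02 (SE 0.31, adjusted p = 0.960) and Mt2 by 0.59 (SE 0.28, adjusted p = 0.0953), beside 36.5% of genes called. Over 10 alternatives the Mt2 difference stayed positive, at 0.59 to 1.10, and was called in 1. The test of the difference between the treatments in this step gave −1.04 for Mt1 (adjusted p = 0.375) and −1.15 for Mt2 (adjusted p = 0.336), so the treatments were not shown to differ in it.

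From the 8-cell to the morula stage, light Mt1 rose by 1.40 (SE 0.21, adjusted p = 7.35e-05), from 247.7 to 490.4 in the 8-cell libraries to 635.9 to 1426 in the morulae with no overlap. Among all genes tested in this step, 11.8% were called and 3.57% did not overlap. Light Mt2 also stood apart, at 329.1 to 546.3 against 608.7 to 921.7. Its difference of 0.89 (SE 0.19, adjusted p = 0.00234) fell short of a fold change of 2. It passed on the scale outside the ribosomal locus at 1.03, while the groups overlapped (439.7 to 935.3 and 874.9 to 1630). Mt1 was the only member called in this step in both treatments, as were 4.03% of the genes tested in both in the same direction.

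**Figure D1:**
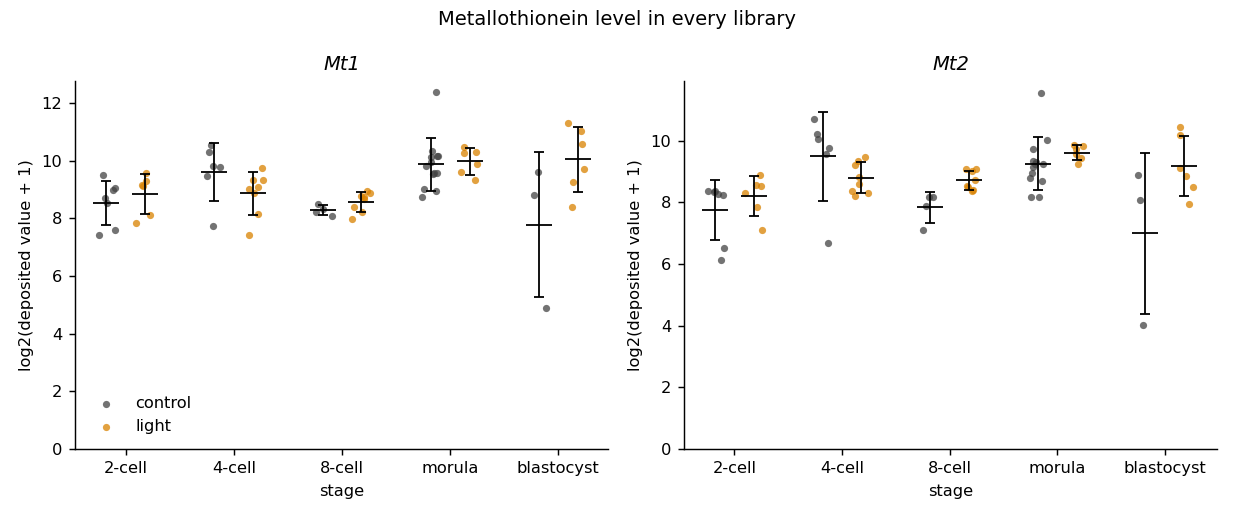
Level of Mt1 and Mt2 in each of the 67 libraries, as log2(deposited value + 1) on the vertical axis against stage, with control and light libraries in separate colours and group means marked. Control blastocyst 1 and control 4-cell embryo 3 lie far below the other libraries of their groups.

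Light against control gave 0 calls for the 6 members over 5 stages, that is in 30 tests by limma, of which 7 had an unadjusted p below 0.05 and 1 an adjusted p below 0.05. The genes called among all tested made up 10.5%, 1.45%, 9.21%, 1.18% and 5.34% in the order of the stages. edgeR on the recovered reads also called 0, whereas DESeq2 called 1 member at the 8-cell stage and 2 at the blastocyst stage. The median log2 fold change of the members was −0.12, 0.14, −0.61, 0.14 and −0.25, against 0.00, 0.13, 0.16, 0.10 and −0.64 over all genes tested. At the 2-cell stage, when the exposure took place, Mt1 differed by 0.31 (SE 0.33, adjusted p = 0.611) and Mt2 by 0.45 (SE 0.38, adjusted p = 0.487), with overlapping groups.

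The metallothioneins were compared in more detail at the 4-cell, 8-cell and blastocyst stages. In light 4-cell embryos, Mt1 ran from 168.7 to 854.0 and Mt2 from 293.0 to 713.3. All 8 light Mt2 values therefore lay below 5 of the 6 control values. The differences of −0.73 for Mt1 (SE 0.37, adjusted p = 0.303) and −0.70 for Mt2 (SE 0.41, adjusted p = 0.384) did not pass with all libraries. Without control 4-cell embryo 3 they were −1.11 (adjusted p = 0.0440) and −1.27 (adjusted p = 0.00744), both called, beside 5.2% of genes called in that fit. Embryo 3 correlated with the light 4-cell libraries at a median of 0.887 over genes and with the other control 4-cell libraries at 0.849. Control embryos 2, 4 and 6 also had the higher median with the light libraries, by a smaller margin (0.801 and 0.797, 0.854 and 0.849, 0.857 and 0.852), and embryos 1 and 2 stood near 0.80 with either group.

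At the 8-cell stage, every light Mt2 value (329.1 to 546.3, n = 8) exceeded every control value (135.8 to 289.6, n = 4). The difference was 0.88 (SE 0.24, adjusted p = 0.0203), a fold change of 1.84 and so short of the fold threshold, at a stage where 5.61% of genes did not overlap. Scaled outside the ribosomal locus it was 0.77 (adjusted p = 0.0313), and the groups overlapped, at 439.7 to 935.3 in light and 257.9 to 468.1 CPM in control. Mt1 differed by 0.30 (SE 0.22, adjusted p = 0.413) with overlapping values. The ratio of Mt2 to Mt1 was accordingly 1.12 ± 0.21 in light and 0.76 ± 0.22 in control 8-cell embryos (SD), while at the 4-cell stage it was 1.00 ± 0.39 and 1.01 ± 0.44. In blastocysts the ratio was 0.56 ± 0.12 in light and 0.58 ± 0.04 in control. Across the 67 libraries, the deviations of Mt1 and Mt2 from their group means moved together, with a Pearson r of 0.913 (Spearman rho 0.853) and of 0.885 on the scale outside the ribosomal locus. These points share the library and its scaling.

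**Figure D2:**
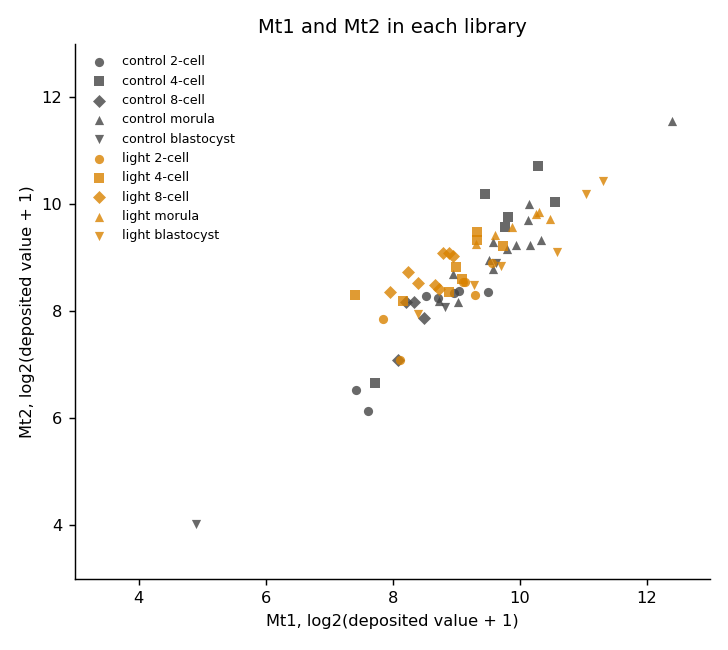
Mt2 against Mt1 in each library, both as log2(deposited value + 1), with a marker for each stage and a colour for each treatment. The points follow a single band, and control blastocyst 1 is the lowest in both genes.

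In light blastocysts, Mt1 stood at 336.8, 617.8, 829.6, 1527, 2111 and 2523 and Mt2 at 245.6, 359.8, 457.8, 551.9, 1174 and 1387. Control libraries 2 and 3 lay within the light ranges of both genes, and control library 1 lay far below them. On the scale outside the ribosomal locus, however, the groups did not overlap in either gene, with Mt1 at 1130 to 6073 in light and 59.0 to 1055 in control and Mt2 at 824.2 to 3340 and 31.1 to 639.2, where 7.88% of genes had no overlap. The difference was 2.27 for Mt1 (SE 0.71, adjusted p = 0.0619) and 2.17 for Mt2 (SE 0.71, adjusted p = 0.0714), against −0.64 for the median gene. Without control blastocyst 1 the differences were 0.83 (adjusted p = 0.302) and 0.68 (adjusted p = 0.374). Leaving out control blastocyst 2 gave 3.19 (adjusted p = 0.0204) and 3.12 (adjusted p = 0.0210), and leaving out control blastocyst 3 gave 2.79 (adjusted p = 0.0178) and 2.71 (adjusted p = 0.0216). Mt1 was also called without light blastocyst 29, at 2.60 (adjusted p = 0.0453).

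On the scale outside the ribosomal locus, where the median gene differed by −0.03, both genes were called in blastocysts, Mt1 at 3.05 (SE 0.63, adjusted p = 0.0166) and Mt2 at 2.96 (SE 0.64, adjusted p = 0.0209). The deposited scale called 45 genes higher and 635 lower in light blastocysts, and the scale outside the ribosomal locus called 142 higher and 98 lower. Over the 9 alternatives, the adjusted p of Mt1 ran from 0.00748 to 0.164 with 5 calls, and that of Mt2 from 0.0175 to 0.174 with 5 calls.

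On the deposited scale, markers of the inner cell mass moved with this comparison. The summed level of its 6 markers was 283.8 to 1158 in control and 136.1 to 204.8 in light blastocysts without overlap, and 5 of the 6 were called lower in light, as were 4.98% of all genes. The 7 trophectoderm markers summed to 455.0 to 6121 in control and 2631 to 6796 in light, with 0 called by limma. Sums and calls of both lists are on the deposited scale, where the median gene differed by −0.64 between light and control. The sums were not taken on the scale outside the ribosomal locus, on which Mt1 and Mt2 were called. Whether the groups overlap is therefore stated for the deposited scale only. Control blastocyst 1, the library with the lowest metallothionein values, had the lowest trophectoderm sum and the highest inner cell mass sum. Since each library holds RNA of a picked cell, a different cell type and a different level in the same cell type cannot be told apart, and the part of either in the metallothionein values was not tested. The Y-linked reads, present in 6 of 6 light and 0 of 3 control blastocysts, moved with the comparison as well, and their part was not tested.

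On the deposited scale, Mtf1 transcripts were highest at the 2-cell stage and declined to the blastocyst stage in both treatments. On the scale outside the ribosomal locus the means were 250.3, 187.3, 189.0, 61.3 and 47.5 in control and 185.1, 187.5, 142.4, 72.5 and 92.8 in light embryos, so that the light 2-cell stage was not the highest and the light blastocyst stood above the light morula (0.47, adjusted p = 0.447). Control values ran from 164.7 to 444.6 (median 310.6) at the 2-cell stage, from 139.1 to 256.2 (183.8) at the 4-cell stage and from 8.54 to 152.9 (28.9) at the morula stage. They were 87.1, 115.7, 121.0 and 157.1 at the 8-cell stage and 19.5, 34.0 and 42.1 in blastocysts. Light values had medians of 238.0, 167.7, 87.3, 41.1 and 36.1 in the order of the stages. On the deposited scale, neighbouring control stages differed by more than the larger of their standard deviations up to the morula stage. The control 8-cell stage differed from the 4-cell stage by −0.65, a direction that turned under median ratio, quantile, outside-locus and DESeq2 scaling (0.12, 0.12, 0.071 and 0.088).

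No single step of Mtf1 was called in control embryos. The 4-cell stage differed from the 2-cell stage by −0.73 (SE 0.32, adjusted p = 0.0700), and the morula from the 8-cell stage by −1.71 (SE 0.59, adjusted p = 0.0519). The latter passed in 7 of 10 alternatives and without any of control morulae 9, 16, 21 and 26, at −1.79 to −1.89. In light embryos Mtf1 fell by 1.20 from the 8-cell to the morula stage (SE 0.34, adjusted p = 0.0188), a call that was lost without light morula 9 (−0.89, adjusted p = 0.0574). The step before, from the 4-cell stage (139.7 to 304.2) to the 8-cell stage (70.3 to 129.6), had no overlap on the deposited scale, where 2.2% of genes had none and 10.6% were called. Its difference of −0.94 (SE 0.22, adjusted p = 0.00463) had a fold change of 1.92, reached −1.01 and was called without light 8-cell embryo 11, and was −0.39 (adjusted p = 0.366), with overlapping groups, on the scale outside the ribosomal locus.

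Light and control overlapped for Mtf1 at every stage on the deposited scale. Its differences were −0.43, −0.04, −0.33, 0.19 and 0.17 in the order of the stages, with adjusted p-values of 0.361 to 0.965. Outside the ribosomal locus, light blastocysts (58.0 to 111.2) lay above control blastocysts (39.7 to 56.4), where 7.88% of genes had no overlap. The difference on that scale was 0.93 (adjusted p = 0.271).

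Slc30a1, the exporter, fell after the 2-cell stage in both treatments. Control 2-cell values ran from 31.0 to 254.3 with a median of 146.0, and control 4-cell values from 1.64 to 71.4 with a median of 12.0. In light embryos the ranges were 55.1 to 230.5 and 7.34 to 31.9, without overlap where 13% of genes had none. The decrease was 2.89 in control (log2 fold change −2.89, SE 0.74, adjusted p = 0.00285) and 2.31 in light (log2 fold change −2.31, SE 0.43, adjusted p = 9.45e-05). Control 4-cell embryos 1 and 2 had 70.7 and 71.4 and stood above the other 4 of that group. The 8-cell stage differed from the 4-cell stage by 1.47 in control (SE 0.89, adjusted p = 0.342). Without embryos 1 and 2, a choice made after the values were seen, the difference was 2.59 (adjusted p = 0.0430) and was called, beside 14.7% of genes.

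At the 8-cell stage, Slc30a1 values were 19.7, 40.7, 54.6 and 68.4 in control and 0.266 to 24.3 (median 8.67) in light embryos. Only the lowest control embryo fell within the light range, and the lowest light value was a single read. The difference was −2.22 (SE 0.72, adjusted p = 0.0526), which missed the threshold, and was −2.42 (adjusted p = 0.0461) and called on the scale outside the ribosomal locus. It was called in 5 of 9 alternatives with adjusted p-values of 0.0232 to 0.0960, and also without control 8-cell embryo 2 or without light 8-cell embryo 7, 11 or 12. Single markers were called between light and control at this stage too, beside 9.21% of all genes, while the summed levels of the lists overlapped. The 7 genes of the transient 2-cell state had a summed level of 72.6 to 263.0 in control and 1.90 to 122.3 in light 8-cell embryos, with 1 of 4 tested called lower (Zfp352). Of the trophectoderm markers, 2 of 5 tested were called higher in light (Krt8 and Krt18), with sums of 60.4 to 160.1 in control and 46.8 to 148.6 in light, and of the inner cell mass markers 1 of 5 (Pou5f1), with sums of 153.2 to 308.2 and 139.8 to 385.1. Their part in the Slc30a1 and Mt2 values was not tested.

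The other stages showed no call for Slc30a1 between light and control. Control morulae ran from 0 to 73.6 (median 12.7), with no read in morula 12, where 3 reads would have been worth 1.57. Light morulae ran from 4.56 to 32.7. Blastocysts had 26.8, 27.1 and 57.8 in control and 15.8 to 29.9 in light, a difference of −0.68 (SE 0.51, adjusted p = 0.434) that became 0.07 outside the ribosomal locus. The step from the 8-cell to the morula stage differed between treatments by 2.87 (SE 0.98), with an adjusted p of 0.126.

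**Figure D3:**
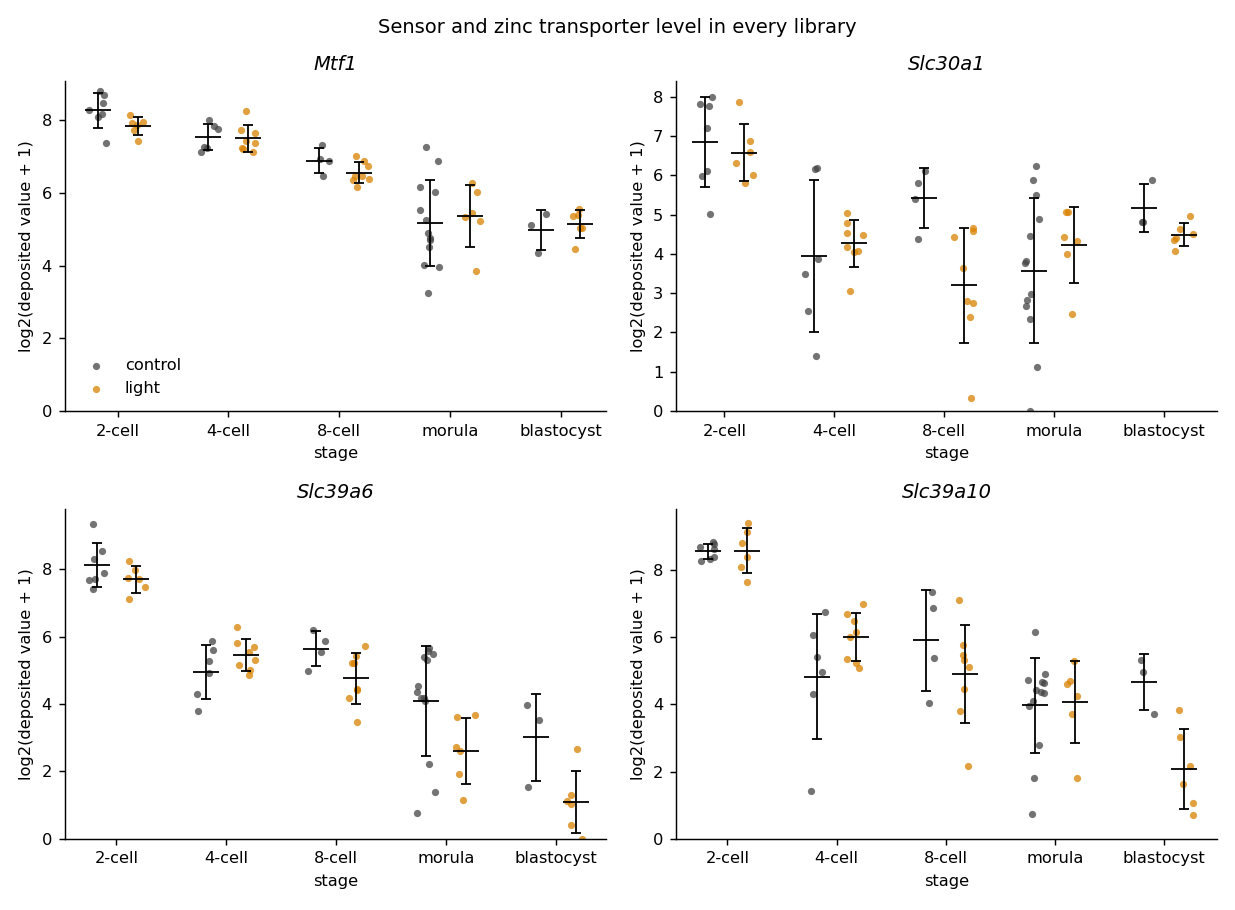
Level of Mtf1, Slc30a1, Slc39a10 and Slc39a6 in each library, as log2(deposited value + 1) against stage, control and light in separate colours with group means marked. On this scale all 4 genes were highest at the 2-cell stage, and light blastocysts were lowest for Slc39a10 and Slc39a6.

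The importers Slc39a10 and Slc39a6 dropped between the 2-cell and the 4-cell stage in both treatments. Slc39a10 ran from 307.7 to 454.5 (median 389.5) in control 2-cell and from 1.70 to 105.6 (35.9) in control 4-cell embryos. Slc39a6 ran from 171.1 to 641.9 (237.3) and from 12.8 to 57.5 (33.6). Neither gene overlapped between these stages, where 20.4% of genes did not.

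The log2 fold change was −3.74 for Slc39a10 (SE 0.60, adjusted p = 3.01e-05) and −3.17 for Slc39a6 (SE 0.44, adjusted p = 5.74e-06). In light embryos the medians went from 390.1 to 66.8 for Slc39a10 and from 209.8 to 42.0 for Slc39a6, again without overlap. The log2 fold changes were −2.58 (SE 0.35, adjusted p = 1.22e-06) and −2.24 (SE 0.33, adjusted p = 3.94e-06). Together with Slc30a1, these were the 3 members called lower in this step in both treatments, in a step where 32.3% of control and 29% of light genes were called lower and 29.7% of the genes tested in both were called in the same direction in both. The test of the difference between treatments gave 1.16 (adjusted p = 0.519) for Slc39a10 and 0.93 (adjusted p = 0.560) for Slc39a6.

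Slc39a10 remained at low and scattered values afterwards. Control 8-cell embryos had 15.4, 40.6, 116.6 and 161.9, light 8-cell embryos 3.48 to 136.9, control morulae 0.657 to 70.7 and light morulae 2.53 to 38.3. The lowest values came from 1 or 2 reads, so that differences among them were not detectable at this depth. From the light 4-cell to the light 8-cell stage Slc39a10 differed by −1.10 (adjusted p = 0.124), and by −1.42 (adjusted p = 0.0353) without light 8-cell embryo 5. In blastocysts the values were 12.1, 29.9 and 39.2 in control and 0.640, 1.10, 2.10, 3.49, 7.20 and 13.2 in light. Only the highest light library thus reached the control range. None did on the scale outside the ribosomal locus (2.15 to 23.8 against 24.7 to 53.4), where 7.88% of genes had no overlap. The difference between light and control blastocysts of −2.59 (SE 0.80, adjusted p = 0.0581) missed the threshold on the deposited scale. It passed without light blastocyst 23 (−2.94, adjusted p = 0.0288), and was −2.14 (adjusted p = 0.209) outside the ribosomal locus. From light morula to light blastocyst Slc39a10 fell by 1.99 (SE 0.69, adjusted p = 0.0357), beside 20.7% of genes called. That call was lost without any of light morulae 3, 5 and 6 or light blastocysts 15, 26 and 29, and was kept in 1 of 9 alternatives.

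Slc39a6 declined further at the morula stage of light embryos. Light 8-cell values were 10.1 to 51.8 (median 28.5) and light morula values 1.21 to 11.9 (median 5.33). The decrease had a log2 fold change of −2.15 (SE 0.53, adjusted p = 0.00695). Control embryos went from 30.5, 45.3, 57.4 and 71.9 at the 8-cell stage to 0.708 to 49.1 (median 19.6) in morulae, a difference of −1.55 (SE 0.79, adjusted p = 0.203). The treatments were not shown to differ in this step (−0.59, adjusted p = 0.90).

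Blastocyst values of Slc39a6 were 10.5, 14.6 and 1.93 in control and 0, 0.320, 1.05, 1.16, 1.47 and 5.35 in light. The light library at 0 could have held up to 1.35 units, the worth of 3 reads. The difference between light and control was −1.93 (SE 0.76, adjusted p = 0.134) in blastocysts and −1.47 (SE 0.72, adjusted p = 0.325) in morulae. Over the 10 group means, Slc39a10 and Slc39a6 followed each other with a Pearson r of 0.959, whereas their deviations within groups did so only with 0.106.

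**Figure D4:**
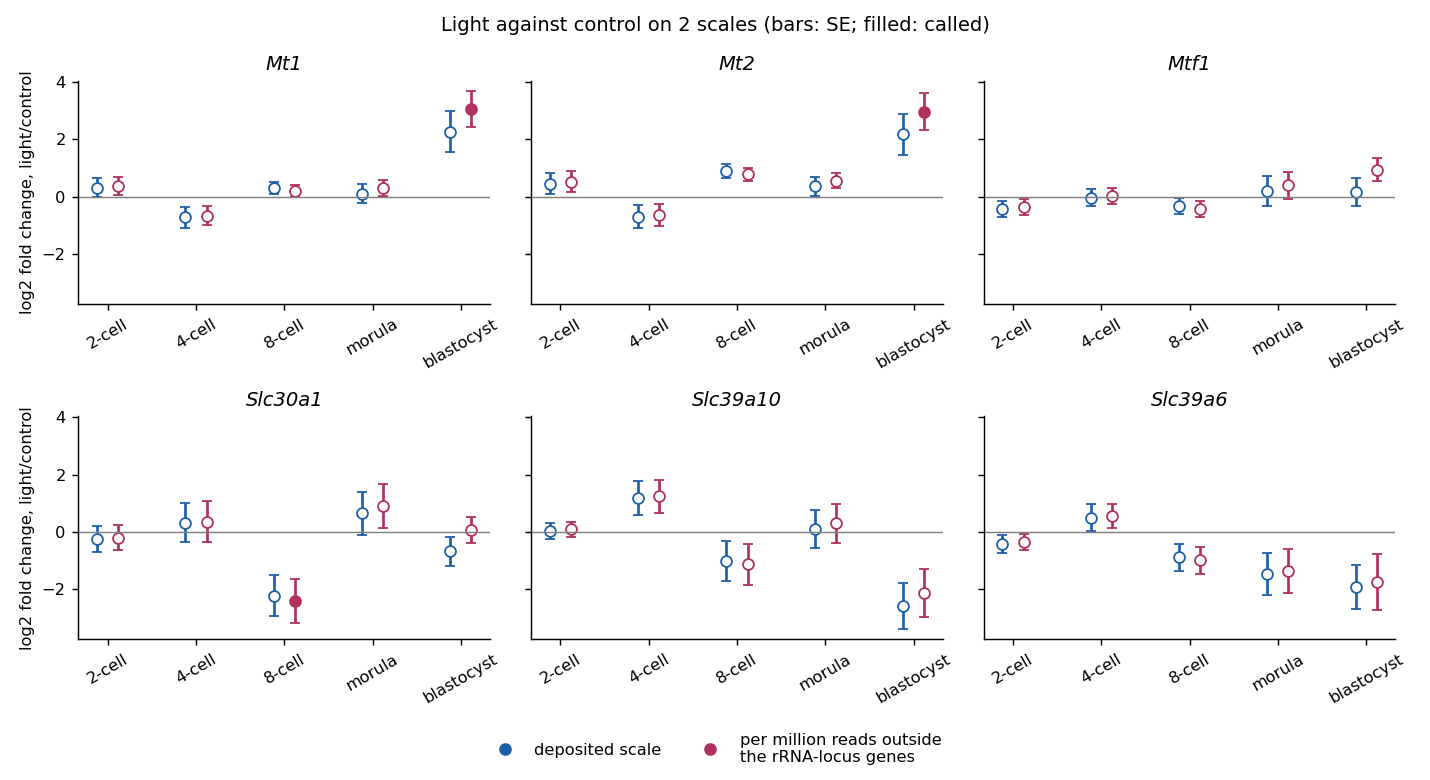
Log2 fold change of light against control for each of the 6 genes by stage, on the deposited scale and on the scale set by the reads outside the ribosomal locus, with bars for the SE and filled points for called differences. Filled points occur only on the scale outside the ribosomal locus, for Slc30a1 at the 8-cell stage and for Mt1 and Mt2 at the blastocyst stage.

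Whether the light effect changed from one stage to the next was tested across all 67 libraries in 24 tests. limma called 0, with 7 at an unadjusted p below 0.05, and edgeR and DESeq2 each called 1, Mt1 between the morula and the blastocyst stage. The genes called among all tested made up 6.36%, 2.51%, 1.65% and 1.82% of the 4 steps. For that last step Mt1 gave 2.16 (SE 0.72, adjusted p = 0.0964) and Mt2 1.82 (SE 0.74, adjusted p = 0.202). Both were called on the scale outside the ribosomal locus, at 2.75 (adjusted p = 0.00452) and 2.41 (adjusted p = 0.0273). Between the 4-cell and 8-cell stages, Mt2 gave 1.58 (adjusted p = 0.274), Slc30a1 −2.55 (adjusted p = 0.201) and Slc39a10 −2.20 (adjusted p = 0.265).

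The remaining zinc transporter and metallothionein genes were described from a list of which 23 were in the table and 17 reached a group mean of 10. The metallothionein genes Mt3 and Mt4 had reads in 2 and 37 of the 67 libraries. Light against control gave 8 calls in 89 tests, 6 higher and 2 lower, that is 4 of 19 genes tested at the 2-cell stage, 3 of 16 at the 8-cell stage, 1 of 18 in blastocysts and 0 of 18 at each of the 4-cell and morula stages. In the stages with calls, the background was the 10.5%, 9.21% and 5.34% given above. In blastocysts the median of the list was −1.04, against −0.64 over all genes.

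At the 2-cell stage Slc39a4 (ZIP4), an importer of the plasma membrane, was higher in light at 277 ± 123 against 63.0 ± 51.8 (SD, n = 6 and 7), a log2 fold change of 2.43 (adjusted p = 0.00223). Slc39a9 (ZIP9) was higher by 1.65 (adjusted p = 0.00704) without overlap, at a stage where 4.15% of genes had none. Slc30a3 (ZnT3), known for loading zinc into synaptic vesicles, was lower at 77.5 ± 31.8 against 375 ± 208, a log2 fold change of −2.13 (adjusted p = 5.25e-04) without overlap. At the 8-cell stage Slc39a2 (ZIP2), also an importer, was higher by 3.87 (adjusted p = 0.00207), with 3.87 to 56.1 in light and 0 to 1.16 in control embryos. Slc30a7 (ZnT7), a transporter of the Golgi apparatus, was higher by 3.12 (adjusted p = 0.0102) and Slc39a4 by 1.15 (adjusted p = 0.0174). In blastocysts Slc30a3 was lower by 2.64 on the log2 scale (log2 fold change −2.64, adjusted p = 0.0352), from control values of 1.28 to 18.4.

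The call of Slc39a4 at the 8-cell stage was lost without control 8-cell embryo 1, 3 or 4, at 1.03 to 1.05 (adjusted p = 0.0516 to 0.0584). That of Slc30a3 in blastocysts was kept in 1 of 8 alternatives and was lost without control blastocyst 1 or 2 or light blastocyst 13, 15, 24, 26 or 29, at −2.08 to −2.69 (adjusted p = 0.0535 to 0.192). From the 2-cell to the 4-cell stage, 5 of 17 genes of the list tested in both treatments were called in the same direction in both, Slc39a13 higher and Slc30a2, Slc30a3, Slc30a9 and Mt4 lower, a share close to the 29.7% of all genes given above. From morula to blastocyst, Slc39a1 (ZIP1) fell in both, as 1 of 18 genes of the list beside 5.51% of all genes called in the same direction in both, with log2 fold changes of −2.22 (adjusted p = 0.00238) in control and −2.06 (adjusted p = 8.06e-04) in light.

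**Figure D5:**
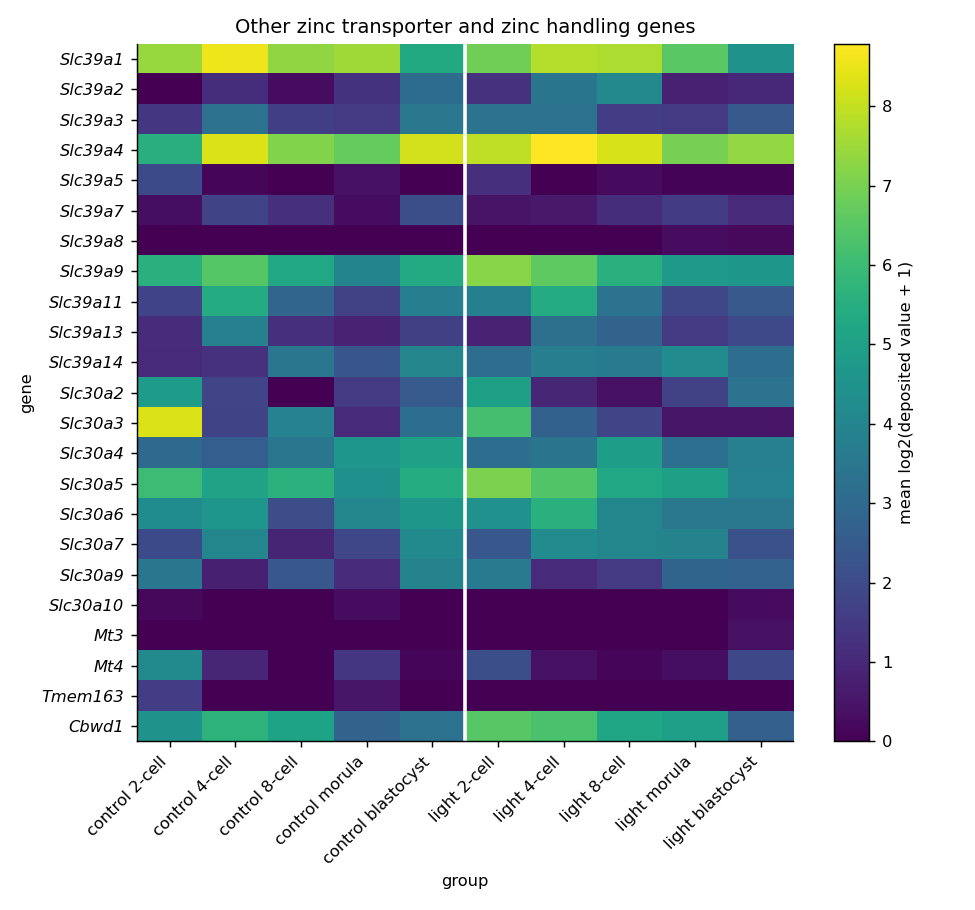
Mean log2(deposited value + 1) of the other zinc transporter and zinc handling genes in the 10 groups, as a colour scale with control groups left of the white line and light groups right of it. Colours compare groups within a row and not genes with each other, since values are not divided by length.

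Among 11130 genes with a mean of at least 10 in some group, the patterns most like those of the members over the 10 group means were found for the following genes. Mt1 was closest to Mt2 (Pearson r 0.915), Sfmbt2 (0.869) and Epas1 (0.858), and Mt2 to Anapc11 (0.923), Mt1 and Epas1 (0.871). Mtf1 was closest to Slc6a9 (0.994), Scarf1 (0.984) and Gatad2b (0.981). Slc30a1 was closest to Lysmd4 (0.968), Slc43a2 (0.967) and Ccsap (0.965). The importers had Zhx3 (0.992), Ccdc88a (0.992) and Rock1 (0.989) nearest to Slc39a10 and Kdm7a (0.984), Cnppd1 (0.982) and Kdm6a (0.978) nearest to Slc39a6. Each r is a description over 10 points that share stage and scaling.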

How the data were processed

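Expression was measured in 67 libraries, which were grouped by stage and treatment from their labels. Per the labels' processing notes, the submitters used HISAT2, HTSeq 0.9.1 and the mm9 build. The deposited values were of unit signal, that is reads per gene that the authors had scaled by the size factor of each library. Although the methods speak of RPKM, at least 99.95% of the values in each library were whole multiples of the worth of 1 read (tolerance 0.01), and 11 genes had another value in some library. No other column of per-sample values was left unused.

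Values were taken as log2(value + 1), and genes were tested where 3 or more of the compared libraries exceeded a value of 1, with limma 3.58.1 (lmFit and eBayes with trend) in R 4.3.3, two-sided. Calls needed a Benjamini-Hochberg adjusted p below 0.05 over all genes tested and a fold change of at least 2. Light was compared with control at each stage, consecutive stages were compared within each treatment, and the light effect was compared between consecutive stages in a fit of all libraries. Alternatives were other scalings, a pseudocount of 0.1, other filters, 1 fit over all libraries, edgeR 4.0.16 and DESeq2 1.42.0 on the recovered reads, the replicate number as a block, and leaving out each library in turn. The test was checked on simulated reads. No 2 libraries of a group matched within sampling noise, with a lowest chi-square of 8.14 per degree of freedom.

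Depth ran from 836011 to 8551674 reads, of which 54.0% to 89.3% fell on the 2 genes of the ribosomal RNA locus. Limits of 3 reads for a value of 0 cover counting error only. Exon lengths and positions came from GENCODE M21 and promoter windows from RefSeq, matched by symbol. The 6 genes and the lists of other zinc genes, reported MTF-1 targets, copper genes and markers of the transient 2-cell state, trophectoderm, inner cell mass, cumulus and sperm were chosen with earlier results of these data known. From these lists, up to 3 called genes per comparison with the smallest p were named, and for each member the 3 genes with the highest r over group means, leaving out predicted symbols.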

Additional observations from a re-analysis of the deposited data

Results flagged for a closer look

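The Mt2 value of control 4-cell embryo 3, 100.7, lay far below those of the other 5 embryos of its group (763.5 to 1674). On the log2 scale its gap to the nearest of them took a share of 0.720 of the whole range, above Dixon's critical value of 0.625 for 6 samples. Of 48 such checks on the members this was the 1 that passed, and chance alone passes about 1 in 20. The cause of this low value was not tested. Control morulae (13 libraries) and control blastocysts (3 libraries) were not among the groups checked. In the former, morula 26 stood at 5365 for Mt1, where the other control morulae reached at most 1295.

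The effect of light differed between consecutive stages for 4 genes of the lists of other zinc genes, reported MTF-1 targets and copper genes. For Slc30a3 it was −2.13 in 2-cell and 0.93 in 4-cell embryos, a difference of 3.06 (SE 0.88, adjusted p = 0.0237). For Ndrg1, a stress-responsive gene, it was −2.30 and 1.02, a difference of 3.32 (SE 1.06, adjusted p = 0.0436). For Csrp1, which encodes a LIM domain protein, it was 6.03 in 8-cell embryos and 2.24 in morulae, a difference of −3.79 (SE 0.96, adjusted p = 0.0200). For Selenow, which encodes a small selenoprotein, it was −0.86 in morulae and 1.75 in blastocysts, a difference of 2.61 (SE 0.56, adjusted p = 0.00383). Over 8 alternatives the call was lost in 2 for Slc30a3 and in 5 for Ndrg1, and was kept in all 8 for Csrp1 and Selenow. The calls of the earliest step were 1 of 21 other zinc genes, 1 of 5 targets and 0 of 9 copper genes, where 6.36% of all genes were called. From 8-cell embryos to morulae and from morulae to blastocysts, 1 of 5 targets was called each time, beside 1.65% and 1.82% of all genes. Lists this short cannot show whether their share exceeds that of all genes.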

How the results depend on the processing

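At the 8-cell stage the count of members called between light and control went from 0 to 1 (Slc30a1) under median ratio scaling, quantile normalization, scaling by the reads outside the ribosomal locus, a filter on a mean above 5 and DESeq2. In blastocysts it went from 0 to 2 (Mt1 and Mt2) under these 3 scalings, 1 fit over all libraries and DESeq2. The count of differences in the light effect between stages went from 0 to 2 under median ratio scaling and outside the ribosomal locus, and to 1 under quantile normalization, edgeR and DESeq2. The 7 calls in light stage transitions became 4 in 1 fit over all libraries. Over the other results, 268 of the single values for light against control kept their direction and side of the threshold, 15 gained and 0 lost a call, and 10 changed sign. For the stage transitions the numbers were 399, 19, 29 and 32. The cause was not tested.

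Replicate numbers are shared between some groups, but same-numbered libraries did not deviate together (r of −0.0873 to 0.0695), so they were not taken as pairs. With the replicate block, which keeps only same-numbered libraries, the calls in the comparisons that could be fitted went from 4 to 0 in control transitions (3 of 4 comparisons), from 6 to 1 in light transitions (3 of 4) and from 4 to 0 for the other zinc genes (3 stages). No block could be fitted for light against control at the 8-cell and blastocyst stages, for control 4-cell against 2-cell or for light blastocyst against morula, where fewer than 2 numbers are shared. Under the block the sign changed for 2-cell Slc30a1 (0.63) and Slc39a10 (−0.58), morula Slc39a10 (−0.84), control blastocyst against morula Mtf1 (0.82) and light 4-cell against 2-cell Mtf1 (0.18).

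No called value changed sign. Without control 4-cell embryos 1 and 2, the Mt1 call in control 4-cell against 2-cell was lost (0.78, adjusted p = 0.167). Uncalled values did so as follows. Light against control became −0.010 for 2-cell Slc39a10 (edgeR), 0.020 for 4-cell Mtf1 outside the ribosomal locus and 0.15 without control 4-cell embryos 1 and 2 (chosen after seeing the data), −0.70 and −0.67 for 4-cell Slc30a1 (edgeR, DESeq2), and 0.018 and 0.068 for blastocyst Slc30a1 (quantile, outside the ribosomal locus). In control 8-cell against 4-cell, Mtf1 became 0.12 under median ratio and quantile scaling, 0.071 outside the ribosomal locus and 0.088 with DESeq2, and in control blastocyst against morula 0.055 under median ratio scaling. In light 4-cell against 2-cell, Mtf1 became 0.089, 0.060, 0.13 and 0.072 under median ratio, quantile, edgeR and DESeq2. Under median ratio, quantile, outside the ribosomal locus, edgeR and DESeq2 in turn, light 8-cell against 4-cell gave 0.30, 0.28, 0.26, 0.21 and 0.24 for Mt1 and 0.52, 0.50, 0.48, 0.47 and 0.49 for Mt2, and light blastocyst against morula gave 0.27, 0.31, 0.26, 0.42 and 0.43 for Mt2 and 0.47, 0.42, 0.47, 0.36 and 0.39 for Mtf1. Light 8-cell against 4-cell Slc39a6 became 0.0046 with DESeq2.

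Leaving out each library in turn gave 0 to 0 members called between light and control at the 2-cell stage, 0 to 2 at the 4-cell, 0 to 1 at the 8-cell, 0 to 0 at the morula and 0 to 2 at the blastocyst stage, 7 to 11 in control transitions, 6 to 8 in light transitions and 7 to 10 for the other zinc genes. It was not run for the difference in light effect between stages. The sign changed within −0.14 to 0.21 for 2-cell Slc39a10, −0.14 to 0.056 for 4-cell Mtf1, −0.18 to 0.77 for 4-cell Slc30a1, −0.17 to 0.55 for morula Slc39a10 and −0.14 to 0.40 for blastocyst Mtf1. In transitions it did so within −0.43 to 0.10 for control blastocyst against morula Mtf1, −0.18 to 0.23 for light 4-cell against 2-cell Mt1, −0.16 to 0.022 for light 8-cell against 4-cell Mt2, and −0.17 to 0.41 for Mt1 and −0.089 to 0.43 for Slc30a1 in light blastocyst against morula. With 3 control blastocysts and single reads behind the lowest transporter values, small differences were not detectable.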

Other observations

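Of 5 genes reported elsewhere as MTF-1 targets, Csrp1 differed most between light and control. At the 8-cell stage it stood at 67.8 to 217.7 in light and at 0 to 10.0 in control embryos, of which 2 of 4 had a read, with a log2 fold change of 6.03 (SE 0.55, adjusted p = 4.66e-07 by limma). It was also higher in light at the 4-cell stage (102.2 ± 53.0 against 22.7 ± 18.3, SD, log2 fold change 2.75, adjusted p = 0.0399) and the morula stage (187.0 ± 35.4 against 52.9 ± 38.7, 2.24, adjusted p = 0.0228), but did not pass at the 2-cell and blastocyst stages. Ndrg1 was lower in light 2-cell embryos (59.0 ± 57.5 against 195.8 ± 62.3, −2.30, adjusted p = 0.00255), and Selenow was higher in light blastocysts (192.3 ± 56.7 against 64.7 ± 37.9, 1.75, adjusted p = 0.0256). Gclc and Slc40a1 were called at none of the 5 stages. The calls were 1 of 5 genes tested at each of the 2-cell, 4-cell, 8-cell and blastocyst stages and 1 of 4 in morulae. Over all genes, 10.5%, 1.45%, 9.21%, 1.18% and 5.34% were called in the order of the stages. Leaving out 1 library at a time kept the call of Csrp1 in 12 of 12 fits at the 8-cell stage and that of Ndrg1 in 13 of 13. The Csrp1 call held in 5 of 14 fits at the 4-cell stage, being lost without control 4-cell embryo 1, 2 or 5 or light 4-cell embryo 5, 6, 7, 11, 13 or 14 (2.00 to 2.88, adjusted p = 0.0595 to 0.0840), and in 15 of 19 at the morula stage, being lost without light morula 3, 5, 9 or 12 (2.19 to 2.24, adjusted p = 0.0518 to 0.0559). The Selenow call was lost without control blastocyst 1 (1.09, adjusted p = 0.129) and without light blastocyst 24 or 29.

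Among 9 copper genes, only Slc31a1, the copper importer CTR1, was called between light and control. That is 1 of 9 tested at each of the 2-cell and 8-cell stages, near the 10.5% and 9.21% called among all genes. It was higher in light at the 2-cell stage (159.7 ± 42.6 against 50.8 ± 25.2, log2 fold change 1.79, adjusted p = 0.00568) and at the 8-cell stage (25.8 ± 10.9 against 8.89 ± 10.4, 2.52, adjusted p = 0.0400). The first of these calls held in 13 of 13 fits with a library left out and the latter in 5 of 12, being lost without control 8-cell embryo 1 or 3 or light 8-cell embryo 6, 8, 10, 11 or 12 (1.82 to 2.54, adjusted p = 0.0546 to 0.158). In 4 of 9 alternatives the latter was lost too. The cumulus gene Tnfaip6, 1 of 3 cumulus genes tested, was higher in light 2-cell embryos as well (log2 fold change 2.65, adjusted p = 0.0343).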
